A study of Mus musculus with 8 samples.

Results

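The glutathione, peroxiredoxin and thioredoxin genes were chosen by symbol, without use of their values. The rule took the glutathione transferase (Gst), glutathione peroxidase (Gpx), peroxiredoxin (Prdx), superoxide dismutase (Sod), thioredoxin (Txn), thioredoxin reductase (Txnrd) and glutaredoxin (Glrx) genes, with Gclc, Gclm, Gss, Gsr, Cat, Hmox1, Nqo1 and Srxn1. It found 48 of the 14496 genes in the mouse embryonic brain table and 13 of the 9217 genes in the mouse embryonic stem cell (mESC) table, and all 13 were among the 48. The NTD (neural tube defect) group held 3 brain libraries of small, delayed embryos with hindbrain malformation and spina bifida. Their dams were kept on a low folate diet and were injected with methotrexate (MTX), a folate antagonist, on gestational day 7.5, at a dose of 1.5 mg/kg. In the control group were 3 brain libraries labelled with normal saline, from embryos with closed neural tubes. The labels give neither the diet of the control dams nor the mouse strain, so diet and drug are compared together. Embryos of both groups were taken between days 9.5 and 10.5. The labels do not say whether a library is 1 embryo or a pool, or whether the 3 came from different litters. The p-values therefore speak for the spread of these libraries. The mESC, of the Sv129 line, were split into an FA0 culture in folate-free medium (0 mg/L folic acid) and an FA4 culture given folic acid at 4 mg/L, with serum and leukemia inhibitory factor in both and 1 library each. The treatment labels call FA0 low folic acid and FA4 normal folic acid.

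Glutathione is a small thiol peptide that cells hold at high concentration. Glutamate-cysteine ligase (Gclc and Gclm) and glutathione synthetase (Gss) make it, glutathione reductase (Gsr) regenerates it with NADPH, the peroxidases use it to reduce peroxides, and the transferases join it to reactive compounds. Peroxiredoxins also reduce peroxides and are returned to their active form mostly by thioredoxin, which thioredoxin reductase recharges with NADPH. Superoxide dismutases turn superoxide into hydrogen peroxide, which catalase (Cat) breaks down. Hmox1 breaks down heme and Nqo1 reduces quinones. Many of these genes can be induced through NRF2, a transcription factor that binds the antioxidant response element. In mid-gestation the embryo moves towards oxygen-based metabolism, and the closing neural tube is known to be sensitive to oxidative stress.

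The brain libraries held 17335564 to 26788304 counts in NTD and 18959473 to 26238026 in controls. Brain levels are in CPM, that is counts relative to the TMM-scaled library total. The libraries stood apart from one another in ways the groups do not describe. Across genes, control library 1 correlated with control libraries 2 and 3 at 0.775 and 0.76 in log2 CPM, and these 2 with each other at 0.91. The NTD libraries correlated with one another at 0.718 to 0.749. Among the 10253 genes averaging 100 counts or more, 486 to 794 had 3 counts or fewer in an NTD library, against 987, 358 and 215 in control libraries 1 to 3. Of the 40 antioxidant genes with such a mean, 7 (17.5%) had a library at 3 counts or fewer, beside 19.6% of all genes, and 5 of these 7 were that low in control library 1. The label of brain was set against marker lists. The 12 neuron markers summed to 855 to 968 CPM in NTD and to 4310 to 6063 CPM in controls. Each of the 15 markers of yolk sac and visceral endoderm had every NTD library above every control, beside 12.4% of all tested genes. Of these 15 markers 7 were called higher by the test given below, beside 1.89% of all tested genes. Their sums were 14300 to 17340 CPM over the 15 in NTD and 314 to 732 CPM in controls. The 14 trophoblast markers summed to 1878 to 2516 CPM in NTD and to 39.1 to 64.2 CPM in controls, where Prl3d3, Prl8a9 and Tpbpa were at 0. The 10 neural progenitor markers summed to 1001 to 1589 CPM in NTD and to 2123 to 2786 CPM in controls, and the endothelial markers to 386 to 435 CPM in NTD and to 235 to 272 CPM in controls. The mesenchyme sums were 1394 to 2430 CPM in NTD and 1377 to 1958 CPM in controls. The erythroid sums were 20220 to 22110 CPM in NTD and 16420 to 26710 CPM in controls. The macrophage sums were 15.4 to 65.1 CPM in NTD, where Csf1r was at 0, and 76.8 to 145.5 CPM in controls.

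In the NTD brains 3 antioxidant genes were higher and 0 were lower at an adjusted p under 0.05 (edgeR quasi-likelihood test, Benjamini-Hochberg over 11626 genes). The 3 genes were Gpx3 and Sod3, which encode secreted enzymes, and Gstm1, a transferase gene of the mu class. Of the 48 genes 44 passed the filter on low counts, so the 3 calls stand against a background of 2.89% of all tested genes called, 1.89% higher and 0.998% lower. DESeq2 and limma-voom called no antioxidant gene lower either. The other differences were mostly small. The log2 fold change of NTD over control was above 0 in 35 of the 44, or 79.5%, beside 49.4% of all tested genes. The median was 0.61, beside -0.02 over all tested genes. Gstm3, which was at 0 in the controls, passed the filter only through the NTD libraries and is counted among the 44. All 3 NTD libraries lay above all 3 controls in 16 of the 44 genes, beside 12.4% of all tested genes, and below them in 2, beside 12.1%. At an unadjusted p under 0.05 there were 12 higher and 2 lower genes, beside 8.31% and 6.73% of all tested genes. Those not called were Gstm3, Prdx6, Prdx1, Glrx5, Sod1, Gsr, Txn1, Cat and Gpx1, with a higher NTD level, and Prdx2 and Prdx5, with a lower one, and all are given by library. Without NTD library 2 the 14 genes at an unadjusted p under 0.05 became 9. In bulk tissue fewer cells of a type and less RNA per cell cannot be told apart, and the part of the yolk sac, trophoblast, neuron, progenitor, endothelial and macrophage markers in these differences was not tested.

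**Figure D1:**
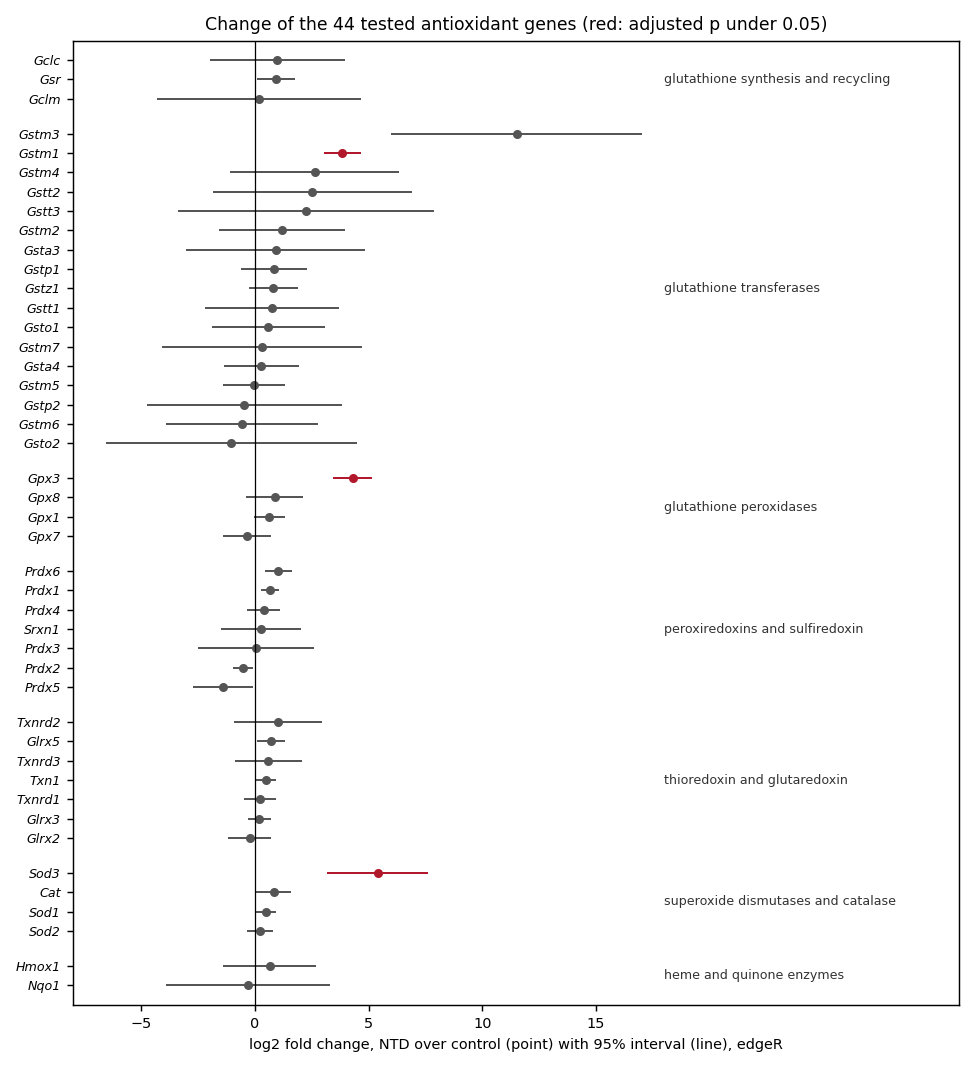
Log2 fold change of NTD over control (horizontal axis) for the 44 tested antioxidant genes, grouped by role, with 95% intervals from the edgeR fit as bars. Gpx3, Gstm1 and Sod3 are the 3 called genes, at 4.30, 3.85 and 5.39. The value of Gstm3 is a fitted one against 0 counts in all controls and is not a measured fold. Most other intervals cross 0.

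The glutathione transferases were the largest class, with 17 genes, all tested. Gstm1 was called and lay far above the controls. Its level was 387.7, 347.3 and 302.2 CPM in the NTD libraries, against 16.9, 35.1 and 20.0 CPM in the controls. The groups were separated by a wide gap, with the lowest NTD library above every control. The means were 346 ± 42.7 CPM in NTD and 24.0 ± 9.73 CPM in controls (SD, n = 3 each), a 14.4-fold difference (log2 fold change 3.85 ± 0.34 SE, 95% interval 3.08 to 4.61, edgeR quasi-likelihood adjusted p = 0.000893). Gstm3, a second mu-class gene, held 418, 103 and 452 counts in NTD and 0 counts in each control. It was thus present in every NTD library and not detected in any control. Its NTD mean of 15.8 ± 11.6 CPM (SD, n = 3) was at least 120.1-fold above a floor of 3 counts per control library, a bound on counting error only. Gstm3 missed the threshold by a narrow margin (edgeR quasi-likelihood adjusted p = 0.0505). With no filter on low counts it was called (adjusted p = 0.0404), as with DESeq2 (adjusted p = 1.13e-07), and over all alternatives its adjusted p ran to 0.186.

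Gstm1 belongs to a cluster of mu-class genes on mouse chromosome 3 (GRCm38, 107895821 to 108044894, a span of 149 kb). In the order of the chromosome these are Gstm5 on the plus strand, then Gstm7, Gstm6, Gstm3, Gstm2, Gstm1 and Gstm4 on the minus strand. None of the other 6 was called. Gstm5, at the far end of the cluster, averaged 63.2 ± 45.3 CPM in NTD and 64.8 ± 34.4 CPM in controls (SD, n = 3 each), with a log2 fold change of -0.04. Gstm4, next to Gstm1 on the other side, averaged 18.8 ± 8.12 CPM in NTD and 3.05 ± 2.72 CPM in controls, and all 3 NTD libraries lay above the controls without a call (edgeR quasi-likelihood adjusted p = 0.554). Gstm2, between Gstm1 and Gstm3, averaged 15.2 ± 12.2 CPM in NTD and 6.68 ± 1.41 CPM in controls, with overlapping groups because NTD library 3 was at 1.26 CPM. Gstm6 averaged 9.56 ± 8.49 CPM in NTD and 14.1 ± 3.87 CPM in controls, and Gstm7 stayed under 5 CPM in all libraries. The neighbours other than Gstm3 were added after their values were seen. The coding sequence of Gstm1 was 64.2% (Gstm5) to 79.9% (Gstm3) identical to the others, and no stretch of 150 bases in its transcripts, the length of a read, occurred in another gene. For Gstm3 3.44% of such stretches occurred elsewhere, in Gm8834.

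**Figure D2:**
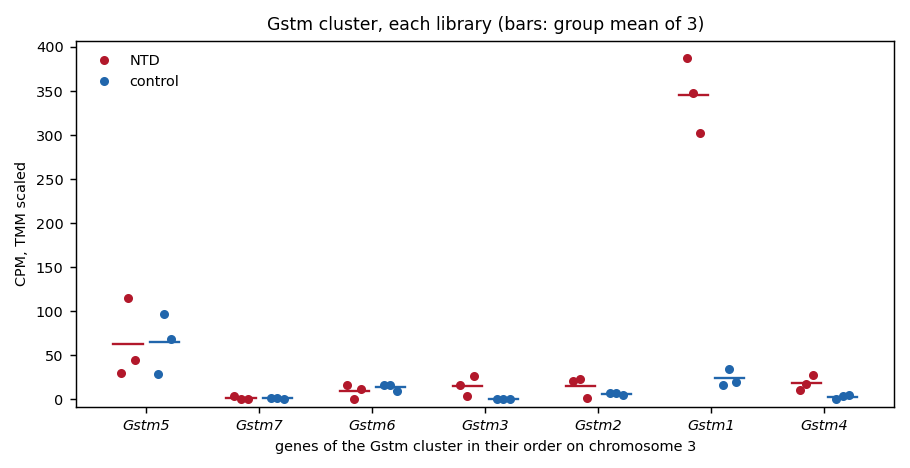
CPM (vertical axis) of the 7 mu-class transferase genes in their order on the chromosome (horizontal axis), with 1 point per library, NTD left of control, and a bar at each group mean. Gstm1 reached 346 CPM in NTD and 24.0 CPM in controls, while Gstm5 was at 63.2 and 64.8 CPM in the same groups.

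Promoter sequences of 6 genes are given so that the differing members can be set side by side. They come from RefSeq (GRCm38.p6) and run 5′ to 3′ on the gene's strand, from 250 bases before the annotated start to 50 after it. Gpx3 and Gstm1 are shown as called genes, Gstm3 and Gstm5 as the cluster members at 0 in the controls and at like levels in the groups, and Prdx1 and Sod1 as the genes with a core that had all NTD libraries above the controls without a call. They were chosen for that core, and the other such genes with an entry had none. Capitals mark TGACNNNGC, the core of the antioxidant response element, searched on either strand.
Gpx3 (chr11:54902604-54902903, plus strand): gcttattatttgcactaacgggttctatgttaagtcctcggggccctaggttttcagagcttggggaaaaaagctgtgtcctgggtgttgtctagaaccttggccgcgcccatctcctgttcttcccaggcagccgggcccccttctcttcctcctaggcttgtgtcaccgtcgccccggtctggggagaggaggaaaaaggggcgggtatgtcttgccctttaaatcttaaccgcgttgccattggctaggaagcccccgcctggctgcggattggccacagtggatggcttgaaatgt
Gstm1 (chr3:108017769-108018068, minus strand): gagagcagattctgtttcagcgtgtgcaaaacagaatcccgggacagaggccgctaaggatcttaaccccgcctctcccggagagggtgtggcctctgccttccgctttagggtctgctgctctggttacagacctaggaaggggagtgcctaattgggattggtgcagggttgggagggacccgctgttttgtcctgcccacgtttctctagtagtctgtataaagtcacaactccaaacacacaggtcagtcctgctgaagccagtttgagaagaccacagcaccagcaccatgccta
Gstm3 (chr3:107969125-107969424, minus strand): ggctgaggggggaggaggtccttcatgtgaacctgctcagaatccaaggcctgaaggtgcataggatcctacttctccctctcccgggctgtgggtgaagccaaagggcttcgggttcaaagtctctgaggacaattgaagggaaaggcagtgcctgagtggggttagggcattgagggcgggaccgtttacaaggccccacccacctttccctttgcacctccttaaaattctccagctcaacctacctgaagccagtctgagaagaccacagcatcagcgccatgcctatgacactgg
Gstm5 (chr3:107895604-107895903, plus strand): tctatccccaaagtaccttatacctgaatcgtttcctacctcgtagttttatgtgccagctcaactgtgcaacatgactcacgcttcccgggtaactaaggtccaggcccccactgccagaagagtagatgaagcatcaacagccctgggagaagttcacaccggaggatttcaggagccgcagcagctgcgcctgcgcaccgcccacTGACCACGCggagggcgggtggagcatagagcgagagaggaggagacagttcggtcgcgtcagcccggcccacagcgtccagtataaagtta
Prdx1 (chr4:116685349-116685648, plus strand): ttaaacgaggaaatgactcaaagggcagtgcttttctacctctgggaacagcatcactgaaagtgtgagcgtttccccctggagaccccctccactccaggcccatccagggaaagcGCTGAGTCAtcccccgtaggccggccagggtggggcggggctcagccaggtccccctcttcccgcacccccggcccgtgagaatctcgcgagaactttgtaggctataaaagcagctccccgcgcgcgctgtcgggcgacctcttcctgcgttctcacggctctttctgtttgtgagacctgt
Sod1 (chr16:90220512-90220811, plus strand): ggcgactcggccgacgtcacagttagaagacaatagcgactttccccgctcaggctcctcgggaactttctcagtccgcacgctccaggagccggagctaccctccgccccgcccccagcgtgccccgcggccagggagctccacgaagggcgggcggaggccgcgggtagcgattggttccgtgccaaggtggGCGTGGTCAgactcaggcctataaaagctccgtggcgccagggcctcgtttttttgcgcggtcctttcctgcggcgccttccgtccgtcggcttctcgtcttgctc
Counted in bases from the start, the core began at -42 in Gstm5, at -133 in Prdx1 and at -56 in Sod1, and was not in the windows shown for Gpx3, Gstm1 and Gstm3. Of the 48 antioxidant genes 41 matched an entry, and 8 of these 41 (19.5%) held the core in at least 1 promoter, beside 3781 of 27025 genes (14%) in the whole table. Counted by promoter the shares were 14.5% of 55 and 12.4% of 32851. The 8 genes were Gclm, Gsta3, Gstm5, Gstm7, Prdx1, Sod1, Srxn1 and Txnrd1. Gpx3 and Gstm1, the only called genes with an entry, were not among them, and sites outside these windows were not searched. Gclc, Gsr, Gsta4, Gstt2, Hmox1, Prdx6 and Sod3 had no entry. A match of these letters is a description and not a shown binding site.

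Among the transferases outside the mu class the groups overlapped in all but Gstt2, a theta-class gene with 5.12, 20.2 and 7.82 CPM in NTD, against 0, 3.40 and 2.35 CPM in controls (edgeR quasi-likelihood adjusted p = 0.665). It was named after its values were seen. Gstz1, which also acts in tyrosine breakdown, had the third smallest p of the class, with 36.7, 63.2 and 117.3 CPM in NTD, against 34.0, 47.1 and 43.1 CPM in controls. NTD library 3 was the highest and NTD library 1 lay within the controls, and the difference did not pass (log2 fold change 0.81 ± 0.46 SE, edgeR quasi-likelihood adjusted p = 0.492). Without NTD library 3 its log2 fold change was 0.19. The log2 fold change was above 0 in 13 of the 17 transferases, with a class median of 0.81. Summed over the class, the levels were 688 to 742 CPM in NTD and 199 to 294 CPM in controls, and Gstm1 made up most of the difference. Gstp1 and Gstp2, pi-class neighbours with 29.4% and 31.6% of read-length stretches in common with other genes, and Gstt3, with 16.3%, are uncertain. So are Gstm5 and Gstz1, whose exons are overlapped for 13.9% and 12.2% by genes on the opposite strand. Gsta3, Gsta4, Gsto1, Gsto2 and Gstt1 complete the class, and control library 1 held 0 counts of 5 transferases, Gsta3, Gstm3, Gstm4, Gstt2 and Gstt3.

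The glutathione peroxidases reduce peroxides with glutathione, some of them at a selenocysteine, and 4 of the 5 listed genes were tested. Gpx3, the secreted plasma peroxidase (chromosome 11, 54902453 to 54910377, GRCm38), had 258.8, 247.1 and 161 CPM in NTD, against 8.06, 14.3 and 11.5 CPM in controls. Every NTD library exceeded every control by a wide gap. The means were 222 ± 53.4 CPM in NTD and 11.3 ± 3.13 CPM in controls (SD, n = 3 each), a 19.7-fold difference (log2 fold change 4.30 ± 0.36 SE, 95% interval 3.48 to 5.12, edgeR quasi-likelihood adjusted p = 0.000875). Gpx3 and Gstm1 were called in all 15 alternatives, each at an adjusted p of at most 0.0174. Gpx1, the abundant cytosolic peroxidase, had 631.1, 666.6 and 754.9 CPM in NTD, against 260.6, 551.2 and 510.6 CPM in controls. The groups did not overlap, but control library 1 stood well below the other controls, and the difference did not pass (log2 fold change 0.63 ± 0.28 SE, edgeR quasi-likelihood adjusted p = 0.326). Gpx8, an enzyme of the endoplasmic reticulum, had 32.5, 64.1 and 150.4 CPM in NTD, against 38.0, 36.6 and 60.1 CPM in controls, with overlapping groups. Gpx7, of the same compartment, had the lowest log2 fold change of the class, -0.34. Gpx2, the gut form, held 1 count over all 6 libraries and was not tested. Gpx4 is not analysed here.

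Sod3, the extracellular superoxide dismutase, was the third called gene (chromosome 5, 52363791 to 52371418, GRCm38). It had 45.5, 49.4 and 56.2 CPM in NTD, against 0.129, 1.83 and 1.62 CPM in controls. The NTD libraries were close to one another, and control library 1 was the lowest. The means were 50.4 ± 5.37 CPM in NTD and 1.19 ± 0.925 CPM in controls (SD, n = 3 each), a 42.1-fold difference (log2 fold change 5.39 ± 0.96 SE, 95% interval 3.23 to 7.56, edgeR quasi-likelihood adjusted p = 0.0192). The call was lost with limma-voom (adjusted p = 0.088) and without NTD library 1 (0.103), NTD library 2 (0.0777), NTD library 3 (0.0825) or control library 2 (0.0542), and adjusted p over the alternatives ran from 2.36e-08 to 0.103. Its log2 fold change stayed between 4.77 and 6.004. All 4 genes of the dismutase and catalase class had NTD libraries above the controls without overlap, as did 12.4% of all tested genes. Sod1, the copper-zinc enzyme of the cytosol, had 850, 1062 and 917.3 CPM in NTD, against 698.5, 670 and 676 CPM in controls (log2 fold change 0.47 ± 0.17 SE, edgeR quasi-likelihood adjusted p = 0.225). Sod2, the manganese enzyme of mitochondria, had 153.1, 179 and 150.2 CPM in NTD, against 132.4, 137.6 and 143.4 CPM in controls, the smallest difference of the class (log2 fold change 0.22, adjusted p = 0.777). Cat had 234.6, 259.3 and 536.2 CPM in NTD, against 202.3, 201.7 and 175.4 CPM in controls (log2 fold change 0.83 ± 0.32 SE, adjusted p = 0.244). NTD library 3 alone was far above the controls for Cat, and none of these 3 passed the test. The class summed to 1283 to 1660 CPM in NTD and 996.4 to 1033 CPM in controls.

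**Figure D3:**
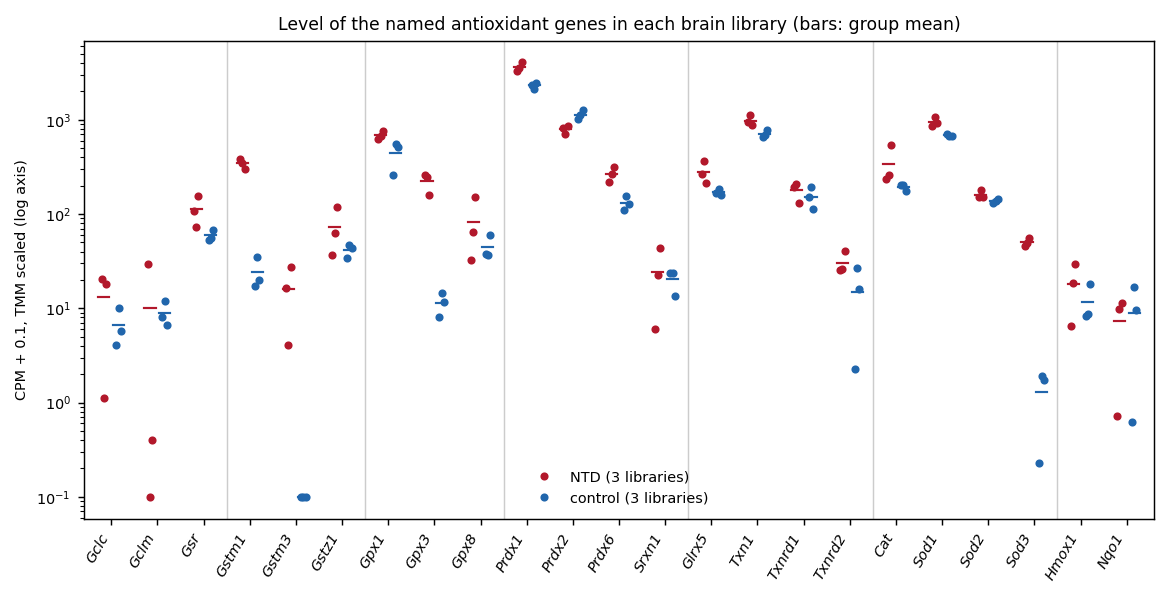
CPM + 0.1 per library (log axis) of 23 antioxidant genes, by class, NTD left and control right, with the group mean as a bar. Gpx3, Gstm1 and Sod3 show a gap between the groups, while the Gclm libraries of NTD lie on both sides of the controls.

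None of the peroxiredoxin genes was called, and their log2 fold changes had both signs. Prdx6, which also has a phospholipase activity, had 216.9, 263.1 and 317.4 CPM in NTD, against 110.8, 153.8 and 129.2 CPM in controls. The groups did not overlap, with means of 266 ± 50.3 CPM in NTD and 131 ± 21.6 CPM in controls (SD, n = 3 each; log2 fold change 1.02 ± 0.25 SE, edgeR quasi-likelihood adjusted p = 0.0654). Prdx1, a cytosolic peroxiredoxin, had 3329, 3574 and 4056 CPM in NTD, against 2332, 2140 and 2485 CPM in controls, again without overlap (log2 fold change 0.66 ± 0.16 SE, edgeR quasi-likelihood adjusted p = 0.0656). Both genes missed the threshold, and both passed with DESeq2 (adjusted p = 0.00544 for Prdx6 and 0.00196 for Prdx1). Prdx1 also passed with limma-voom (0.0295), and over the alternatives adjusted p ran to 0.22 for Prdx6 and to 0.282 for Prdx1. Prdx2, abundant in red cells, was 1 of 2 genes whose NTD libraries all lay below the controls, with 817.1, 704.4 and 848.3 CPM in NTD and 1014, 1128 and 1266 CPM in controls (log2 fold change -0.52 ± 0.18 SE, edgeR quasi-likelihood adjusted p = 0.184). Of the 12 erythroid markers tested 0 were higher and 1 was lower in NTD, beside 1.89% and 0.998% of all tested genes. All NTD libraries lay above the controls in 1 of these markers and below them in 2, beside 12.4% and 12.1% of all tested genes. The part of these markers in the Prdx2 values was not tested. The second such gene was Prdx5, a form found in mitochondria and peroxisomes, named after its values were seen. It had 70.5, 63.1 and 15.6 CPM in NTD and 208.4, 91.5 and 94.2 CPM in controls (adjusted p = 0.267). Trmt112 on the opposite strand overlaps 19.1% of the Prdx5 exons, and other genes overlap 11.5% of those of Prdx2, so both levels are uncertain where the counting did not use strand.

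Prdx3, the mitochondrial form, and Prdx4, the form of the secretory pathway, had overlapping groups, and NTD library 3 held 6 counts of Prdx3. Srxn1, the sulfiredoxin that repairs overoxidised peroxiredoxins, had 5.98, 22.6 and 43.9 CPM in NTD, against 23.6, 23.5 and 13.3 CPM in controls. Its NTD libraries lay on both sides of the controls (edgeR quasi-likelihood adjusted p = 0.947). The class held 7 genes, all tested, with 0 called, a log2 fold change above 0 in 5 and a median of 0.26. Its summed level was 4678 to 5567 CPM in NTD and 3755 to 4254 CPM in controls.

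Of the 4 genes that make and regenerate glutathione none was called. Gsr had 107.5, 73.0 and 155.1 CPM in NTD, against 53.4, 56.2 and 67.7 CPM in controls. It was the only 1 of the 4 with groups that did not overlap, and the difference did not pass (log2 fold change 0.92 ± 0.35 SE, edgeR quasi-likelihood adjusted p = 0.228). Gclc, the catalytic subunit of the first step, had 20.2, 1.01 and 17.8 CPM in NTD, against 4.01, 10.04 and 5.69 CPM in controls. Gclm, its modifier subunit, held 755, 0 and 5 counts in NTD, against 183, 328 and 126 counts in controls. NTD library 2 was the lowest for both subunits, and neither log2 fold change differed from 0 beyond its error (0.98 ± 1.31 SE for Gclc and 0.17 ± 1.98 SE for Gclm). Gss held 268 counts in NTD library 3 and 0 in the other 5 libraries, and it was not tested. Its exons are overlapped for 18.6% by genes on the opposite strand.

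Thioredoxin and glutaredoxin genes numbered 9, of which 7 were tested and 0 called. Txn1, the cytosolic thioredoxin, had 947.1, 1120 and 872.5 CPM in NTD, against 656.2, 688 and 773.5 CPM in controls. The groups did not overlap (log2 fold change 0.47 ± 0.18 SE, edgeR quasi-likelihood adjusted p = 0.243). Glrx5, a glutaredoxin of mitochondrial iron-sulfur cluster assembly, had 266.2, 366.9 and 211.1 CPM in NTD, against 166.9, 185.2 and 160.8 CPM in controls (log2 fold change 0.72 ± 0.25 SE, adjusted p = 0.197). Its groups did not overlap either. Txnrd1, the cytosolic reductase, had 195.7, 208.9 and 132.2 CPM in NTD, against 151.3, 193.6 and 112.5 CPM in controls, with overlapping groups (adjusted p = 0.835). Txnrd2, the mitochondrial reductase, had 25.3, 26.0 and 40.0 CPM in NTD, against 2.16, 26.9 and 15.8 CPM in controls, where control library 1 was far below the rest (adjusted p = 0.696). Its log2 fold change was 1.02, with 0.512 without control library 1 and 1.76 without control library 2. Txnrd3, Glrx2 and Glrx3 were tested without a call. Of the untested genes, Glrx held 155, 104 and 0 counts in NTD and 1, 0 and 0 in controls, and Txn2, the mitochondrial thioredoxin, held 52, 0 and 2 counts in NTD and 0 in each control.

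The inducible enzymes of heme and quinone breakdown showed no separation. Hmox1 had 6.33, 18.5 and 29.6 CPM in NTD, against 8.24, 8.51 and 18.01 CPM in controls (edgeR quasi-likelihood adjusted p = 0.859). Nqo1 had 0.625, 9.77 and 11.4 CPM in NTD, against 0.517, 16.6 and 9.60 CPM in controls (adjusted p = 0.97). Library 1 was the lowest of its group for both genes in NTD and in controls, and the groups overlapped for both.

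Levels were compared between genes as CPM per kilobase of exon, with all annotated exons of a gene merged. The ranks thus depend on the annotation as well as on the counts. For Sod1 the merged length was 3.97 kb, while its protein-coding transcripts held only 492 stretches of 150 bases. Prdx1 was the highest of the 48 in both groups, at 1200 ± 121 in NTD and 762 ± 56.9 in controls (mean ± SD, n = 3 each). Txn1 came next in both, at 932 ± 121 in NTD and 672 ± 57.7 in controls. In NTD the order went on with Gpx1, Prdx2 and Sod1, at 475 ± 44.2, 259 ± 24.8 and 238 ± 27.3 per kilobase, of which Prdx2 and Sod1 differed by less than their spread. Prdx2 was ahead of Gpx1 in controls, at 372 ± 41.2 and 306 ± 109 per kilobase, within the spread of Gpx1. Gstm1 stood at rank 6 in NTD (235 ± 29.0 per kilobase, next to Sod1 within the spread) and at rank 20 in controls (16.3 ± 6.61). Gpx3 stood at rank 8 in NTD (123 ± 29.5) and at rank 28 in controls (6.23 ± 1.73), and Sod3 at rank 24 in NTD (13.5) and 43 in controls (0.319). The 5 highest genes were the same in both groups.

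Genes around the system were read from 7 lists in the same fit. The NRF2 control list (11 genes, all tested) had 0 called in either direction, 0 at an unadjusted p under 0.05 and a median log2 fold change of 0.20. Sqstm1, an adaptor that binds KEAP1, had the smallest p, with 212.6, 61.5 and 55.4 CPM in NTD, against 22.6, 54.1 and 107.6 CPM in controls (edgeR quasi-likelihood adjusted p = 0.672). Nfe2l2, which encodes NRF2, had 15.2, 0 and 8.24 CPM in NTD, against 18.6, 1.79 and 1.2 CPM in controls, with overlapping groups. Keap1, its inhibitor, averaged 28.0 ± 15.8 CPM in NTD and 23.4 ± 9.34 CPM in controls (SD, n = 3 each). Of 12 genes of glutathione conjugate export and glyoxal handling 1 was higher and 0 lower, beside 1.89% and 0.998% of all tested genes. It was Mgst2, a membrane-bound transferase that also makes a leukotriene, with 29.0, 18.3 and 11.5 CPM in NTD, against 0.129, 0 and 0.0522 CPM in controls (edgeR quasi-likelihood adjusted p = 0.04). The Mgst2 controls were at or under a floor of 3 counts per library, so it passed the filter only through the NTD libraries. Of 12 tested thioredoxin partners and protein repair genes 1 was higher and 0 lower, beside the same shares of all tested genes. It was Txndc17, a thioredoxin-like protein of the cytosol, with 340.4, 275.2 and 229.7 CPM in NTD, against 120.1, 155.4 and 123.4 CPM in controls (log2 fold change 1.08 ± 0.24 SE, edgeR quasi-likelihood adjusted p = 0.0496).

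The other lists had no called gene. Of 9 tested genes of glutathione precursors and breakdown 4 had all NTD libraries above the controls and 1 (Ggct, log2 fold change -1.55) had them below, beside 12.4% and 12.1% of all tested genes. The median log2 fold change of that list was 1.55. Chac1, which degrades glutathione and is induced by amino acid shortage, had the smallest p, with 17.5, 6.17 and 19.1 CPM in NTD, against 0, 0 and 0.0522 CPM in controls (edgeR quasi-likelihood adjusted p = 0.0546). Chac1 too was under the floor of 3 counts in each control and passed the filter only through the NTD libraries. Of 8 genes of NADPH supply, with a median of 0.04, Pgd of the pentose phosphate pathway had the smallest p, with 108.4, 253.9 and 182.4 CPM in NTD, against 68.3, 101 and 67.3 CPM in controls (adjusted p = 0.124). The medians of the 5 selenoprotein synthesis genes and of the 7 iron and heme genes were -0.05 and -0.31. Sephs1, of selenophosphate synthesis, had the smallest p of the selenoprotein list, with 150.9, 151.1 and 77.1 CPM in NTD, against 190.6, 211.2 and 218.5 CPM in controls (edgeR quasi-likelihood adjusted p = 0.294). Slc40a1, the iron exporter, had the smallest p of the iron list, with 52.0, 24.9 and 104 CPM in NTD, against 0.561, 19.1 and 17.3 CPM in controls (adjusted p = 0.343). At an unadjusted p under 0.05 the precursor, export and thioredoxin-partner lists held 3 higher genes each, the NADPH list 2, and the selenoprotein list 1 lower gene, beside 8.31% higher and 6.73% lower of all tested genes. Chac1 of the precursor list and Mgst2 and Abcc2 of the export list are in these counts. They passed the filter only through the NTD libraries, so the counts are no support for a change of those lists.

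In the mESC most of the listed antioxidant genes lay within 1.5-fold between the FA0 and the FA4 library. The table lists part of each library, 5247130 estimated counts in FA0 and 3901966 in FA4, and with 1 library per group no test between conditions could be made. The cells carried pluripotency transcripts, with Pou5f1 at 405.1 FPKM in FA0 and 455.9 FPKM in FA4. Of the 13 listed antioxidant genes 11 had a mean of at least 5 FPKM, a fragment count scaled to gene length and library depth. On the log2(FPKM + 1) scale 0 of them were higher and 1 was lower in FA0 past 1.5-fold, beside 3.26% higher and 3.25% lower of all 6771 such genes. The median log2 ratio of FA0 to FA4 was -0.08 over the 11 genes, beside -0.0011 over all such genes. Among the 13 listed genes the highest levels were those of Prdx6 (466.8 FPKM in FA0 and 504.8 FPKM in FA4), Gsta4 (371.9 FPKM in FA0 and 362.4 FPKM in FA4) and Sod1 (263.5 FPKM in FA0 and 259.7 FPKM in FA4). These genes differed by at most 0.11 on the log2 scale.

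The gene past 1.5-fold was Sod2, at 19.9 FPKM in FA0 and 44.3 FPKM in FA4 (log2 ratio -1.11). Its estimated counts gave a lower ratio of 0.232 (exact binomial 95% interval 0.196 to 0.274) after depth was set equal, so the size of this difference depended on the unit. Gclc was just inside the threshold, at 10.4 FPKM in FA0 and 15.7 FPKM in FA4 (log2 ratio -0.55, count ratio 0.643, interval 0.541 to 0.763). Gpx1 was at 120.2 FPKM in FA0 and 161.6 FPKM in FA4 (count ratio 0.748, interval 0.675 to 0.83). Txnrd1 was at 86.5 FPKM in FA0 and 80.8 FPKM in FA4, with a count ratio of 1.08 (interval 1.00 to 1.16). For Gsr the FPKM ratio was -0.13 on the log2 scale and the count ratio 0.761. Cat, Glrx5 and Gss had count intervals that held 1, and Srxn1 and Txnrd3 lay under 5 FPKM. The intervals cover counting error within these libraries only. Gpx3, Gstm1 and Sod3, the called genes in brain, are not among the 13 genes of the mESC table used here. That table is laid out by the peaks described below, so a gene's absence from it says nothing about its level.

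**Figure D4:**
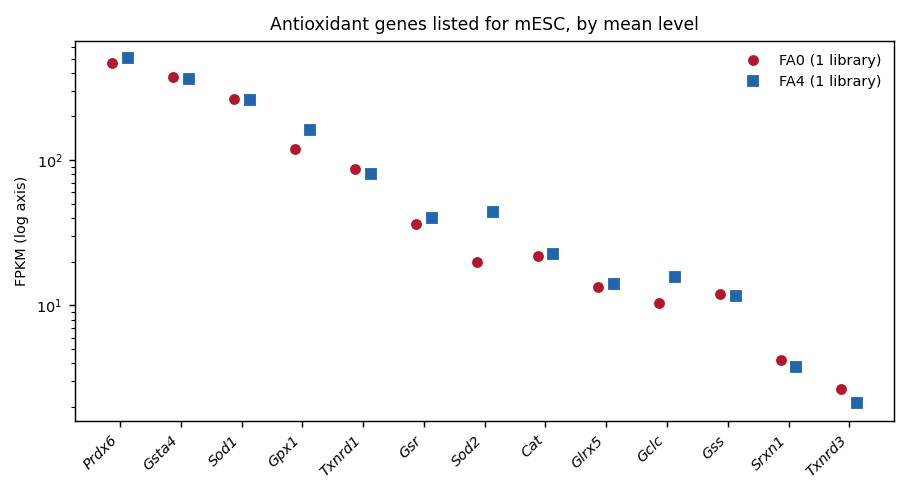
FPKM (log axis) of the 13 antioxidant genes listed for mESC, FA0 left and FA4 right, 1 library each and no error bars. Sod2, at 19.9 FPKM in FA0 and 44.3 FPKM in FA4, shows the widest gap.

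The mESC table also carries peaks of an assay that the labels do not name, with the authors' own comparison of FA0 with FA4. In the authors' deposited table the 13 genes held 19 peaks, of which 10 (52.6%) were higher and 3 (15.8%) lower in FA0 at the authors' adjusted p under 0.05. Over all 23040 peaks of the authors' deposited table, the shares were 18.5% higher and 41.9% lower in FA0. The authors' deposited table gives a median log2 difference of FA0 minus FA4 of 1.34 for the 19 peaks and of -0.76 for all peaks. By the authors' deposited table Txnrd1 had 3 peaks that were all higher in FA0 (1.56, 2.55 and 8.56 on the log2 scale) and Sod1 had 2 (3.05 and 3.21). The difference of 8.56 came from a peak value of 2.46 in FA0 and -6.11 in FA4 in the authors' deposited table. The FA4 values of the Sod1 peak at 3.21 (-0.90) and of the Sod2 peak (-0.56) were below 0 there too. The Sod2 peak of the authors' deposited table was higher in FA0 by 3.08, while the FPKM of Sod2 was lower in FA0. The lower peaks of the authors' deposited table were 1 each in Prdx6 (-0.83), Gclc (-1.02) and Gpx1 (-1.12), and Gclc and Gpx1 each had another peak that was higher. Peaks of 1 gene share their source, and the labels do not name what the peaks measure.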

How the data were processed

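RNA without ribosomal RNA went into low-input libraries that were read as 150 bp pairs, per the labels' protocols. The submitters' processing notes name cutadapt 1.9.3, HISAT2 2.0.4, HTSeq 0.9.1, edgeR and mm10, with no strand setting. The authors deposited read counts per gene for brain, and for mESC estimated counts, FPKM and, per peak, log2 folds with an adjusted p-value. The mESC columns named NFIn were taken as FA0 and those named NormalFIn as FA4.

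The test of the counts was the robust quasi-likelihood F-test of edgeR 4.0.16 with TMM and filterByExpr (R 4.3.3) with p-values adjusted by Benjamini-Hochberg over the 11626 genes kept. On simulated data with 11132 genes this recovered 33.33% of 4-fold and 49.49% of 16-fold changes, with 11 false calls. Estimated counts were rounded, and count ratios used a depth of FA0 over FA4 of 1.33, from 7269 genes with at least 50 counts. Exon lengths and coordinates came from GENCODE on GRCm38.

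The genes and lists were chosen with earlier results of these data known. Library values are given for called genes, the 3 of each class with the smallest p, and 13 fixed genes, of which 1 is not analysed here. In mESC they are given past 1.5-fold and for the 5 highest levels, and in lists for called genes or the smallest p. Nfe2l2, Keap1, Ggct and the other mESC values were added after values were seen. Alternatives were DESeq2 1.42.0, limma-voom (limma 3.58.1), other scalings and filters, the replicate block and left-out libraries.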

Additional observations from a re-analysis of the deposited data

How the results depend on the processing

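Of the 23 antioxidant genes followed by library, 17 kept the sign of their log2 fold change in every alternative that tested them (15, or 14 for Gstm3, which a filter of 5 CPM in 3 libraries removed). The count of 336 called genes in brain became 1036 with DESeq2, 219 with limma-voom and 205 with the replicate block, and 50 to 303 with 1 library left out. The count of 3 called antioxidant genes became 6 with DESeq2 (Gpx3, Gstm1, Gstm3, Prdx1, Prdx6 and Sod3), stayed at 3 with the replicate block, and was 2 to 3 with 1 library left out. Deviations of same-numbered libraries correlated at -0.02, 0.09 and 0.03, and those of other pairs at -0.0994 to 0.0405. With 3 libraries per group these values cannot decide whether the replicate numbers pair the libraries. The sign changed for 6 genes, none of them called. Gclc was at -0.034 with limma-voom. Gclm was at -3.93 with limma-voom, at -4.25 with the replicate block and from -5.91 to 0.692 with 1 library left out. Srxn1 was at -0.37 with limma-voom, at -0.10 with the replicate block and from -0.556 to 0.673 with 1 library left out. Hmox1 ranged from -0.013 to 1.11 and Nqo1 from -0.854 to 0.515 with 1 library left out. Without control library 1 and NTD library 3 together, Srxn1 was at -0.37, Hmox1 at -0.10 and Gpx8 at -0.0091. The cause was not tested. In mESC 2 genes in place of 1 were past 1.5-fold with a pseudocount of 0.1 and 2 with estimated counts, Gclc being added, and the median log2 ratio stayed between -0.05 and -0.11. Gstm3, Gss and Txn2 held 0 counts in all controls, and at this depth counting error alone allows a mean level of up to 0.132 CPM. This bound does not cover a gene's loss from a library.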
